A study of Homo sapiens with 12 samples.

Results

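The genes described here encode the TGF-beta ligands TGFB1, TGFB2 and TGFB3, their signalling receptors TGFBR1 and TGFBR2, the activin subunits INHBA and INHBB, and the activin-binding follistatins FST and FSTL3. They are 9 of the 16383 genes of the deposited table and were taken by symbol. INHBB was selected on its normalized counts, which were higher with palbociclib, so its values in that contrast describe the choice and carry no test. The other 8 were named as the rest of the same family. RNA was measured in the established human lung fibroblast line IMR90, of wild-type genotype, in 4 groups of 3 libraries. Prolif is proliferating cells without treatment. Sen_DMSO, Sen_Palbo and Sen_Ruxo are cells that received 20 Gy of ionizing radiation in 10 min and were collected 11 days later. From day 4, and again on days 6, 8 and 10, they were given DMSO, the solvent control, 2 µM palbociclib, which blocks the cell cycle kinases CDK4 and CDK6, or 2 µM ruxolitinib, which blocks the kinases JAK1 and JAK2. All groups are a single cell line. The day on which proliferating cells were collected is not given in the sources used here, and irradiation, time in culture and DMSO cannot be told apart in the comparison with Prolif.

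TGF-beta is secreted in a latent complex, bound to its own propeptide and to a latent TGF-beta binding protein, and has to be released from it before it can signal. The free ligand binds TGFBR2, which phosphorylates TGFBR1, and TGFBR1 phosphorylates SMAD2 and SMAD3. Activins are dimers of inhibin beta subunits, activin A of INHBA and activin B of INHBB, and signal through their own receptors to the same SMAD proteins, while follistatins bind activins and block them. In fibroblasts this pathway is known for driving collagen, smooth-muscle actin and other contractile genes, and TGF-beta and activin A are among the secreted factors described in senescent cells.

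Whole reads recovered from the table came to 17234093 to 20766998 per library in Prolif, 14106799 to 16503624 in Sen_DMSO, 17575263 to 21762412 in Sen_Palbo and 18713012 to 21750962 in Sen_Ruxo. Levels are the authors' normalized counts. The labels do not say whether the 3 libraries of a group came from separate cultures, so p-values measure the spread between these libraries, which may be technical. Within groups, libraries A119 and A120 of Sen_Palbo and A126 of Prolif lay farthest from their group mean on a component that held 27.1% of the within-group variance. Summed levels of 8 fibroblast markers were 769696 to 802644 in Prolif, 395135 to 405415 in Sen_DMSO, 629473 to 663060 in Sen_Palbo and 499904 to 504266 in Sen_Ruxo, so the labelled cell type was well marked in all groups. Those of 4 epithelial, 4 endothelial and 4 leukocyte markers were at most 56.7 in any library, with KRT5 and SFTPC (epithelial) and CD3E (leukocyte) at 0 in all Prolif and Sen_DMSO libraries. In bulk RNA, fewer cells of a type and less RNA per cell cannot be told apart. Scaling every library to the same total instead would move the median log2 fold change by -0.23 between Sen_Palbo and Sen_DMSO, by -0.20 between Sen_Palbo and Sen_Ruxo and by 0.23 between Sen_DMSO and Prolif. Differences smaller than that shift can change sign with the scaling.

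The promoters of 3 members are shown because INHBB, FSTL3 and TGFB2 are the members with the highest levels under palbociclib relative to DMSO. Each is the 250 bases before the RefSeq start on GRCh38.p14, written 5′ to 3′ on the coding strand, and all lie on the plus strand of the genome: INHBB at chr2:120345886-120346135, FSTL3 at chr19:676142-676391 and TGFB2 at chr1:218345086-218345335. Capitals mark matches, on either strand, to the motifs searched: AP-1 (TGANTCA), CRE (TGACGTCA), the CHOP-ATF4 composite (TGATGNAA), the SMAD-binding CAGA box (CAGACA), E2F (TTTGGCGC), the GC box (GGGCGG) and the TATA box (TATAAA).
INHBB: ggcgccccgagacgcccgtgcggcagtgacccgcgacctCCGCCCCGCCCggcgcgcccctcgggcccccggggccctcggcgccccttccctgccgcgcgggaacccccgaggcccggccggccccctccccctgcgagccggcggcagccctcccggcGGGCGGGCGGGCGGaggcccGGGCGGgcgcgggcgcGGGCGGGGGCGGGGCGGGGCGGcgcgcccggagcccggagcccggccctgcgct
FSTL3: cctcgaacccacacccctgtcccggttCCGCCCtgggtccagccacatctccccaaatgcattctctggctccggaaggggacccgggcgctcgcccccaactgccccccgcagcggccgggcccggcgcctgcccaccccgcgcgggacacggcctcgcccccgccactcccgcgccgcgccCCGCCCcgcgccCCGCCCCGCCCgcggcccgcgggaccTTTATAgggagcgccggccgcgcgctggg
TGFB2: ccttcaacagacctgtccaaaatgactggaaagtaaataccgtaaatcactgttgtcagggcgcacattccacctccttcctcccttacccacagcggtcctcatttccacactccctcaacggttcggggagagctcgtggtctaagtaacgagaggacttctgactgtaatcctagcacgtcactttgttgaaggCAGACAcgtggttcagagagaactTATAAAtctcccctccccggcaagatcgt
The INHBB window is 89.6% G or C and holds 10 GC boxes, some of which overlap, and no TATA box. The FSTL3 window is 80.0% G or C, with 4 GC boxes and a TATA box, read on the minus strand, whose first base lies 29 bases before the start. The TGFB2 window is 50.4% G or C, with a TATA box also 29 bases before the start, a CAGA box 53 bases before it and no GC box. Among all 35116 RefSeq promoter windows of this length, 42.6% hold a GC box, 13.6% a CAGA box and 10.7% a TATA box, so none of these motifs is rare. Of the 9 members, all of which matched a RefSeq promoter, FST alone held an AP-1 match (6.57% of all windows), and none held a CRE (1.65%), CHOP-ATF4 (3.14%) or E2F match (0.55%). A match is a description of the letters and not evidence of a bound site.

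Among the TGF-beta ligands, TGFB2 was higher after irradiation and higher again with palbociclib, while TGFB1 was lower after irradiation and was not called in either inhibitor comparison. TGFB1 (Entrez gene 7040; GRCh38.p14, 19:41330323-41353922, minus strand) encodes the most widely expressed ligand. It measured 3553.8, 3989.2 and 3493.8 normalized counts in the Prolif libraries and 2454.8, 2598.5 and 2629.5 in the Sen_DMSO libraries. It measured 2485.5, 2600.9 and 2801.6 in the Sen_Palbo libraries and 2442.0, 2340.2 and 2537.4 in the Sen_Ruxo libraries. All 9 irradiated libraries lay below all 3 proliferating ones, and the irradiated groups overlapped. The mean fell from 3679 ± 270 (SD, n = 3) in Prolif to 2561 ± 93.2 in Sen_DMSO, a log2 fold change of -0.52 (SE 0.06, limma adjusted p 1.63e-06). With palbociclib it was 2629 ± 160 (log2 fold change against DMSO 0.04, adjusted p 0.646) and with ruxolitinib 2440 ± 98.6 (-0.07, adjusted p 0.658). At the same total per library the palbociclib difference was instead -0.19 (adjusted p 0.0213).

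TGFB2 (7042; 1:218345336-218444619, plus strand) encodes the ligand that binds TGFBR2 well only with the help of a co-receptor such as betaglycan. It measured 431.6, 305.0 and 418.0 normalized counts in Prolif and 701.8, 712.7 and 786.3 in Sen_DMSO. It measured 1107.7, 990.7 and 1095.2 in Sen_Palbo and 761.5, 713.1 and 647.0 in Sen_Ruxo. The Sen_Palbo libraries were the 3 highest of the 12 and the Prolif libraries the 3 lowest, and Sen_DMSO and Sen_Ruxo overlapped between them. TGFB2 rose 1.91-fold from Prolif to Sen_DMSO (384.9 ± 69.5 against 733.6 ± 46.0, a log2 difference of 0.94 with SE 0.11 and adjusted p 1.28e-06). With palbociclib it rose a further 1.45-fold over DMSO, to 1065 ± 64.3 (0.54 on the log2 scale, SE 0.11, adjusted p 0.000932), and at the same total per library this difference was 0.31 (adjusted p 0.0222). It was also higher with palbociclib than with ruxolitinib (707.2 ± 57.5; log2 fold change 0.59, SE 0.11, adjusted p 0.000570), and ruxolitinib did not differ from DMSO beyond the spread (-0.05, 95% interval -0.29 to 0.18, adjusted p 0.878). The exons of TGFB2 overlap those of the antisense TGFB2-AS1 over 11.6% of their joined length and those of TGFB2-OT1 on the same strand over 22.7%, and the strand setting of the counting is not given in the sources used here.

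TGFB3 (7043; 14:75958097-75983011, minus strand), the third ligand, was near the floor of these libraries, with 10 to 32 reads each. It measured 16.6, 13.3 and 9.5 normalized counts in Prolif and 14.8, 21.3 and 13.9 in Sen_DMSO, with 21.0, 13.1 and 14.2 in Sen_Palbo and 24.7, 22.5 and 18.9 in Sen_Ruxo. The groups overlapped except Sen_Ruxo with Prolif. At this depth no difference from DMSO was detectable for palbociclib (log2 fold change -0.05, 95% interval -0.69 to 0.59, adjusted p 0.903) or ruxolitinib (0.40, -0.24 to 1.03, adjusted p 0.585). The difference of Sen_Ruxo from Prolif passed the threshold (0.73, SE 0.30, adjusted p 0.0390) and was lost without any 1 of A126, A127, A122 or A123 (adjusted p 0.0626, 0.149, 0.117 and 0.0865).

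**Figure D1:**
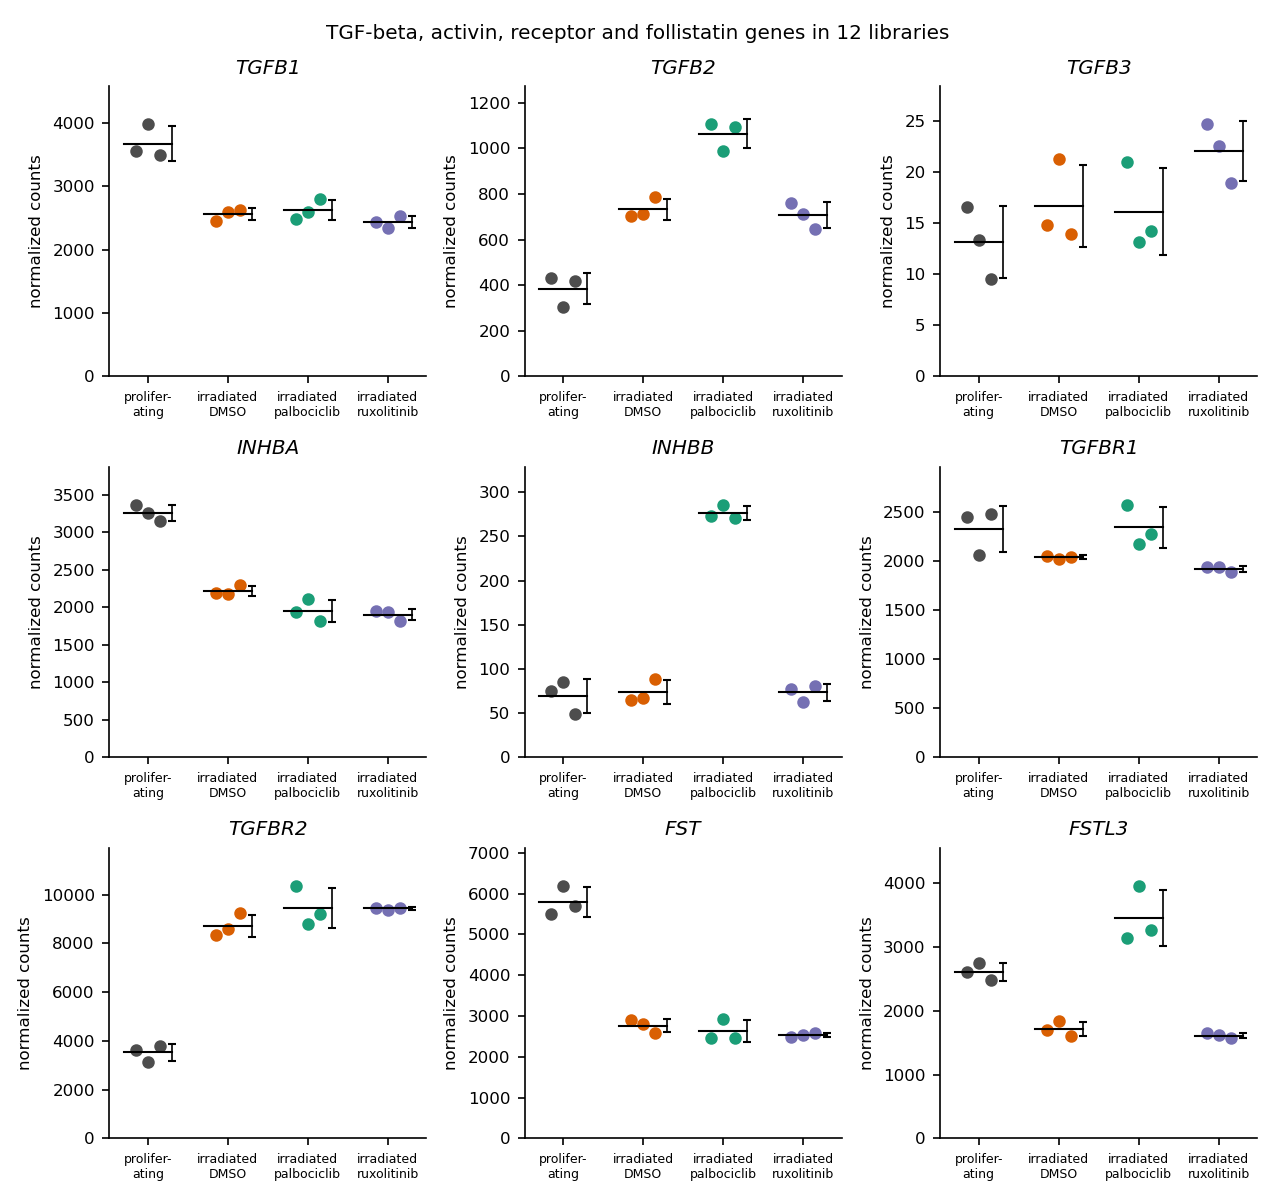
Normalized counts of the 9 genes on linear axes from 0, 1 panel per gene and 1 point per library, for proliferating cells and irradiated cells with DMSO, palbociclib or ruxolitinib; lines are group means and error bars 1 SD (n = 3). INHBB and FSTL3 stand highest in the 3 Sen_Palbo libraries, TGFB2 climbs from Prolif to Sen_DMSO to Sen_Palbo, TGFBR2 is high in all 9 irradiated libraries and FST is high in the 3 Prolif libraries.

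The plot of normalized counts by library shows these levels for all 9 genes side by side. Of the activin subunits, INHBA was lower in every irradiated group than in proliferating cells. INHBB, chosen for its level with palbociclib, lay between 48.6 and 89.0 normalized counts in the libraries of 3 groups and above 270 in Sen_Palbo. INHBA (3624; 7:41685114-41705406, minus strand), the subunit of activin A, measured 3365.0, 3262.8 and 3149.1 normalized counts in Prolif and 2187.5, 2172.3 and 2297.6 in Sen_DMSO. It measured 1934.4, 2108.3 and 1817.4 in Sen_Palbo and 1954.4, 1936.8 and 1818.2 in Sen_Ruxo. The 3 Prolif libraries were the highest, the Sen_DMSO libraries came next without overlap, and the inhibitor groups overlapped each other below them. INHBA fell from 3259 ± 108 in Prolif to 2219 ± 68.4 in Sen_DMSO (log2 fold change -0.55, SE 0.06, adjusted p 4.13e-07).

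Both inhibitors lowered INHBA a little further, to 1953 ± 146 with palbociclib (by -0.19 on the log2 scale, SE 0.06, adjusted p 0.0159) and 1903 ± 74.1 with ruxolitinib (-0.22, SE 0.06, adjusted p 0.0412). The palbociclib call was lost without A118 (adjusted p 0.0681) or A121 (0.0858). The ruxolitinib call was lost without any 1 of the 3 DMSO libraries, the 3 ruxolitinib libraries or A125 of Prolif (adjusted p 0.0551 to 0.209), without the filter on low genes (0.0508) and at the same upper quartile (0.0685). Between the inhibitors INHBA did not differ beyond the spread (0.04, 95% interval -0.09 to 0.16, adjusted p 0.658).

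INHBB (3625; 2:120346136-120351803, plus strand), the subunit of activin B, measured 74.7, 85.4 and 48.6 normalized counts in Prolif and 65.3, 67.5 and 89.0 in Sen_DMSO. It measured 273.3, 285.7 and 270.9 in Sen_Palbo and 77.2, 63.0 and 81.2 in Sen_Ruxo. The Sen_Palbo libraries lay close together at more than 3 times the level of every other library, and the other 3 groups overlapped. The group means were 69.6 ± 18.9, 73.9 ± 13.1, 276.7 ± 7.93 and 73.8 ± 9.54 in that order, so the Sen_Palbo mean was 3.74 times that of Sen_DMSO, 3.75 times that of Sen_Ruxo and 3.98 times that of Prolif. These ratios restate how INHBB was chosen and were not tested. The 1 contrast whose group means use none of the libraries of that choice, Sen_Ruxo against Prolif, gave a log2 fold change of 0.12 (SE 0.19, 95% interval -0.28 to 0.51, limma adjusted p 0.591). Its SE, interval and p-value use the spread of all 12 libraries, those of the choice included, so they are not independent of it. The counts rest on 51 to 305 reads per library.

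The receptors behaved differently from each other after irradiation. TGFBR2 (7048; 3:30606356-30694142, plus strand), which binds the ligand, was more than 2 times as high in every irradiated group as in proliferating cells, while TGFBR1 (7046; 9:99103647-99154192, plus strand), which it activates, kept group means between 1923 and 2343 normalized counts. TGFBR2 measured 3635.8, 3148.6 and 3798.5 normalized counts in Prolif and 8360.2, 8599.3 and 9234.4 in Sen_DMSO. It measured 10363.7, 8797.9 and 9228.3 in Sen_Palbo and 9475.5, 9387.9 and 9452.9 in Sen_Ruxo. All 9 irradiated libraries lay at more than 2 times the highest proliferating one. TGFBR2 rose from 3528 ± 338 in Prolif to 8731 ± 452 in Sen_DMSO, a log2 fold change of 1.31 (SE 0.07, adjusted p 1.68e-10). It stood at 9463 ± 809 with palbociclib (log2 fold change against DMSO 0.11, adjusted p 0.200) and 9439 ± 45.5 with ruxolitinib (0.11, adjusted p 0.494), and neither difference from DMSO was called, while both groups were above Prolif (1.43, adjusted p 4.74e-11, and 1.42, adjusted p 5.96e-11). The 3 Sen_Ruxo libraries all lay above the 3 Sen_DMSO ones, and a fit of those 2 groups alone called the difference (adjusted p 0.0208).

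TGFBR1 measured 2445.7, 2058.4 and 2484.4 normalized counts in Prolif and 2055.9, 2020.8 and 2044.4 in Sen_DMSO. It measured 2574.1, 2175.1 and 2281.1 in Sen_Palbo and 1945.1, 1938.6 and 1885.9 in Sen_Ruxo. Prolif and Sen_Palbo overlapped at the top, Sen_DMSO came next and Sen_Ruxo lowest, with no overlap between these last groups. The difference between Sen_DMSO and Prolif passed the threshold (log2 fold change -0.19, SE 0.07, adjusted p 0.0298), as did that between Sen_Palbo and Sen_DMSO (0.20, SE 0.07, adjusted p 0.0348) and between Sen_Palbo and Sen_Ruxo (0.28, SE 0.07, adjusted p 0.00578). The first was lost at the same upper quartile (adjusted p 0.733), under edgeR (0.108) and DESeq2 (0.130), and without A125, A127 or any 1 of the DMSO libraries (0.0578 to 0.130), and at the same total its value was 0.04. The second was lost in the same settings (adjusted p 0.0589, 0.0519 and 0.0526) and without A116, A117, A118, A119 or A121 (0.0543 to 0.144), and was -0.03 at the same total, where the third had an adjusted p of 0.347. Sen_Ruxo was also called lower than Prolif (log2 fold change -0.27, SE 0.07, limma adjusted p 0.00320). That call was lost at the same total (-0.07, limma adjusted p 0.386) and at the same upper quartile (-0.10, 0.221).

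Both follistatins were lower after irradiation. Palbociclib raised FSTL3 above its level in proliferating cells, and FST was not called against DMSO with either inhibitor in the fit of all groups. FST (10468; 5:53480629-53487134, plus strand), which binds activins with very high affinity, measured 5489.0, 6190.6 and 5707.7 normalized counts in Prolif and 2895.3, 2812.8 and 2582.1 in Sen_DMSO. It measured 2468.9, 2930.4 and 2468.5 in Sen_Palbo and 2482.1, 2532.9 and 2592.4 in Sen_Ruxo. Every irradiated library held less than 0.6 of any proliferating one, and the irradiated groups overlapped. FST fell from 5796 ± 359 in Prolif to 2763 ± 162 in Sen_DMSO, a log2 fold change of -1.07 (SE 0.07, adjusted p 1.48e-09). It was not called with palbociclib (2623 ± 267, log2 fold change against DMSO -0.08, 95% interval -0.23 to 0.07, adjusted p 0.369) or ruxolitinib (2536 ± 55.2, -0.12, -0.27 to 0.03, adjusted p 0.435), although a fit of Sen_Ruxo and Sen_DMSO alone called it lower (adjusted p 0.0378). The palbociclib difference passed the threshold at the same total (-0.31, adjusted p 0.00245) and without A120 (-0.16, adjusted p 0.0370).

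FSTL3 (10272; 19:676392-683385, plus strand), a secreted relative of follistatin that also binds activins and myostatin, measured 2605.4, 2753.7 and 2479.6 normalized counts in Prolif and 1697.6, 1836.1 and 1608.4 in Sen_DMSO. It measured 3141.8, 3961.6 and 3273.3 in Sen_Palbo and 1648.8, 1613.6 and 1577.3 in Sen_Ruxo. The 3 Sen_Palbo libraries were the highest of the 12, the Prolif libraries came next without overlap, and Sen_DMSO and Sen_Ruxo overlapped below. FSTL3 fell from 2613 ± 137 in Prolif to 1714 ± 115 in Sen_DMSO (log2 fold change -0.61, SE 0.08, adjusted p 3.30e-06). With palbociclib it rose 2.02-fold over DMSO, to 3459 ± 440 (1.01 on the log2 scale, SE 0.08, adjusted p 5.97e-08), which was 1.32 times the proliferating mean (0.40, SE 0.08, adjusted p 0.000236). Ruxolitinib left it at 1613 ± 35.8 (log2 fold change against DMSO -0.09, 95% interval -0.25 to 0.08, adjusted p 0.665), and palbociclib exceeded ruxolitinib by 1.09 (SE 0.08, adjusted p 3.50e-08). Across all alternative settings the palbociclib difference from DMSO lay between 0.78 and 1.07 and was called in each.

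**Figure D2:**
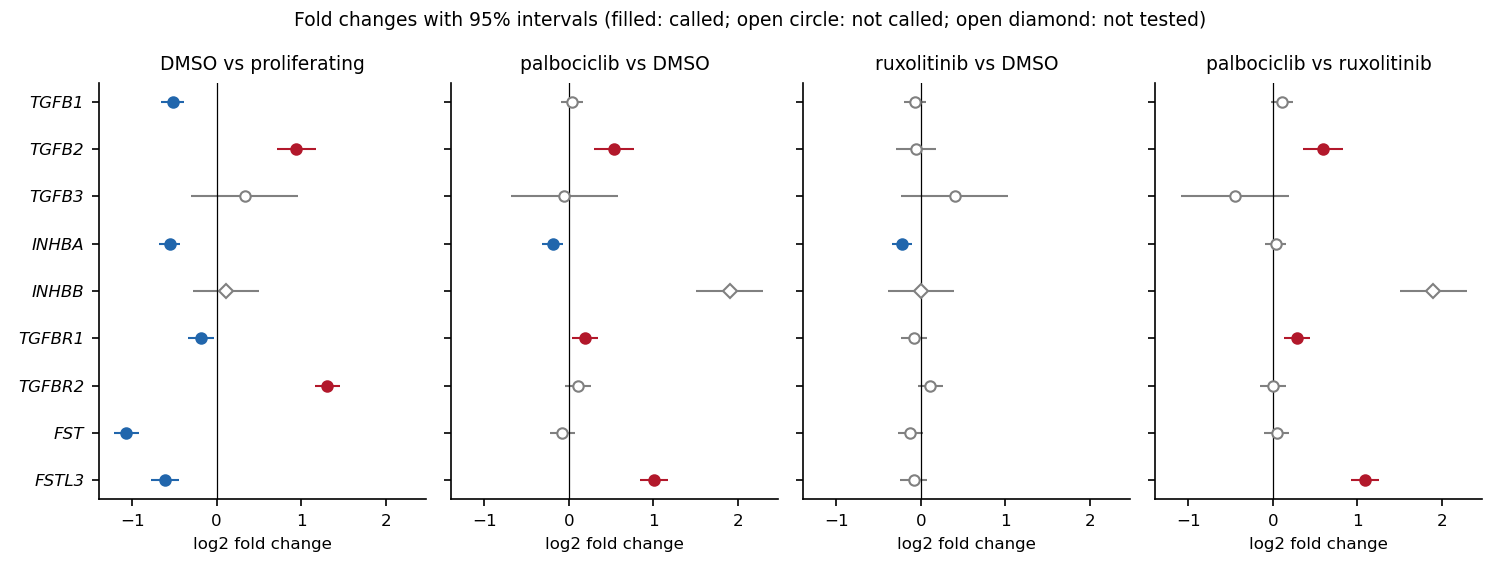
Log2 fold changes of the 9 genes in the limma model, with 95% confidence intervals, for 4 comparisons, 1 panel each; filled symbols are called, open circles not called and open diamonds not tested. Between Sen_DMSO and Prolif, TGFBR2 (1.31) and FST (-1.07) lie farthest from 0, between Sen_Palbo and Sen_DMSO INHBB (1.90, not tested) and FSTL3 (1.01), and between Sen_Ruxo and Sen_DMSO no value is farther from 0 than 0.40.

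Counted over the family, and read against all 11242 tested genes, the comparison of Sen_DMSO with Prolif called 2 of 8 tested members higher, against 33.0% of all genes, and 5 lower, against 39.3%. Palbociclib against DMSO called 3 of 8 higher (26.0% of all genes) and 1 lower (22.3%). Ruxolitinib against DMSO called none of 8 higher (1.10%) and 1 lower (3.42%), and palbociclib against ruxolitinib called 3 of 8 higher (22.8%) and none lower (17.6%). Against Prolif, Sen_Palbo had 3 of 8 higher (35.2%) and 3 lower (38.6%), and Sen_Ruxo, where INHBB also had a test, had 3 of 9 higher (32.6%) and 5 lower (39.5%). With 8 or 9 members, 1 call moves such a share by more than 10 percentage points, and nothing particular to the family is read from these counts. At the same total per library, palbociclib against DMSO called 2 members higher and 3 lower, and 15.4% of all calls were toward higher levels, beside 53.9% as deposited. Against ruxolitinib it then called 2 higher and 2 lower, with 15.7% of all calls higher beside 56.4%. In the plot of fold changes, the 4 members called with palbociclib against DMSO (TGFB2, INHBA, TGFBR1 and FSTL3) were also called in Sen_DMSO against Prolif, TGFB2 and INHBA in the same direction and TGFBR1 and FSTL3 in the opposite one. These comparisons share the DMSO libraries. TGFBR2 and FST had the largest differences between Sen_DMSO and Prolif and were not called with palbociclib against DMSO, and FSTL3 and TGFB2 were the members called higher there in every setting tried.

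Levels of different genes can be set side by side only per length. Per kilobase of joined exons, FST was the highest member in Prolif (2106 ± 130 normalized counts per kilobase), followed by TGFB1 (1127 ± 82.8) and FSTL3 (861.5 ± 45.2). In Sen_DMSO the order was TGFBR2 (1275 ± 66.0), FST (1004 ± 59.0) and TGFB1 (784.6 ± 28.6). In Sen_Palbo it was TGFBR2 (1382 ± 118), FSTL3 (1140 ± 145) and FST (953.0 ± 96.9), and the intervals of 1 SD overlapped between TGFBR2 and FSTL3 and between FSTL3 and FST. In library A120 FSTL3 was above TGFBR2 per kilobase. TGFB3 was lowest in every group, at 2.52 to 4.22 per kilobase, and INHBB next lowest, at 21.7 in Prolif, 23.1 in Sen_DMSO, 23.0 in Sen_Ruxo and 86.3 in Sen_Palbo.

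Within a library, ratios between members do not depend on how libraries are scaled. TGFB1 made up 94.4 ± 1.25% of the summed per-kilobase level of the 3 ligands in Prolif, 86.3 ± 0.431% in Sen_DMSO, 81.8 ± 1.33% in Sen_Palbo and 86.0 ± 1.31% in Sen_Ruxo. TGFB2 made up 5.38 ± 1.24%, 13.3 ± 0.510%, 17.9 ± 1.24% and 13.5 ± 1.24% in the same order, and TGFB3 less than 0.6% in every library. The 3 libraries of each group lay apart in every main comparison of the TGFB1 and TGFB2 shares except ruxolitinib with DMSO. An exact two-sided permutation test gave p = 0.1, the smallest that 3 against 3 allows (adjusted over 4 comparisons 0.133), for irradiation, for palbociclib against DMSO and for palbociclib against ruxolitinib, and 0.8 and 0.9 for ruxolitinib against DMSO.

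The receptor ratio changed most after irradiation. Per kilobase there were 1.77 TGFBR2 for each TGFBR1 in Prolif (log2 0.82 ± 0.02), 4.99 in Sen_DMSO (2.32 ± 0.08), 4.71 in Sen_Palbo (2.24 ± 0.0039) and 5.73 in Sen_Ruxo (2.52 ± 0.03). Groups did not overlap in any of the 4 main comparisons, each with an exact permutation p of 0.1, the smallest possible. On the log2 scale the ratio with palbociclib differed from that with DMSO by -0.08 and the ratio with ruxolitinib by 0.20, both far less than the step from Prolif to Sen_DMSO.

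The summed follistatins stood at 7.54 times INHBA per kilobase in Prolif (log2 2.91 ± 0.10), 5.85 times in Sen_DMSO (2.55 ± 0.13), 8.86 times in Sen_Palbo (3.15 ± 0.09) and 6.33 times in Sen_Ruxo (2.66 ± 0.06). Palbociclib had the highest ratio and DMSO the lowest, and the exact permutation p was 0.1, the smallest possible, in every main comparison except ruxolitinib against DMSO (p = 0.2). The ratio leaves out INHBB. With INHBB added to INHBA, a description chosen after the data were seen, it was 7.15 in Prolif, 5.39 in Sen_DMSO, 6.48 in Sen_Palbo and 5.75 in Sen_Ruxo, so Prolif and not Sen_Palbo was highest. FSTL3 was at 0.409 times FST per kilobase in Prolif, 0.563 in Sen_DMSO, 0.577 in Sen_Ruxo and 1.19 in Sen_Palbo, and only in the 3 Sen_Palbo libraries was it the higher of the pair. That ratio was picked after the values were seen and has no test. INHBB, chosen for its rise, made up 5.20 ± 1.27% of the summed activin subunits in Prolif, 7.90 ± 1.05% in Sen_DMSO, 26.8 ± 0.939% in Sen_Palbo and 9.12 ± 1.30% in Sen_Ruxo, so INHBA was the larger in every library.

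**Figure D3:**
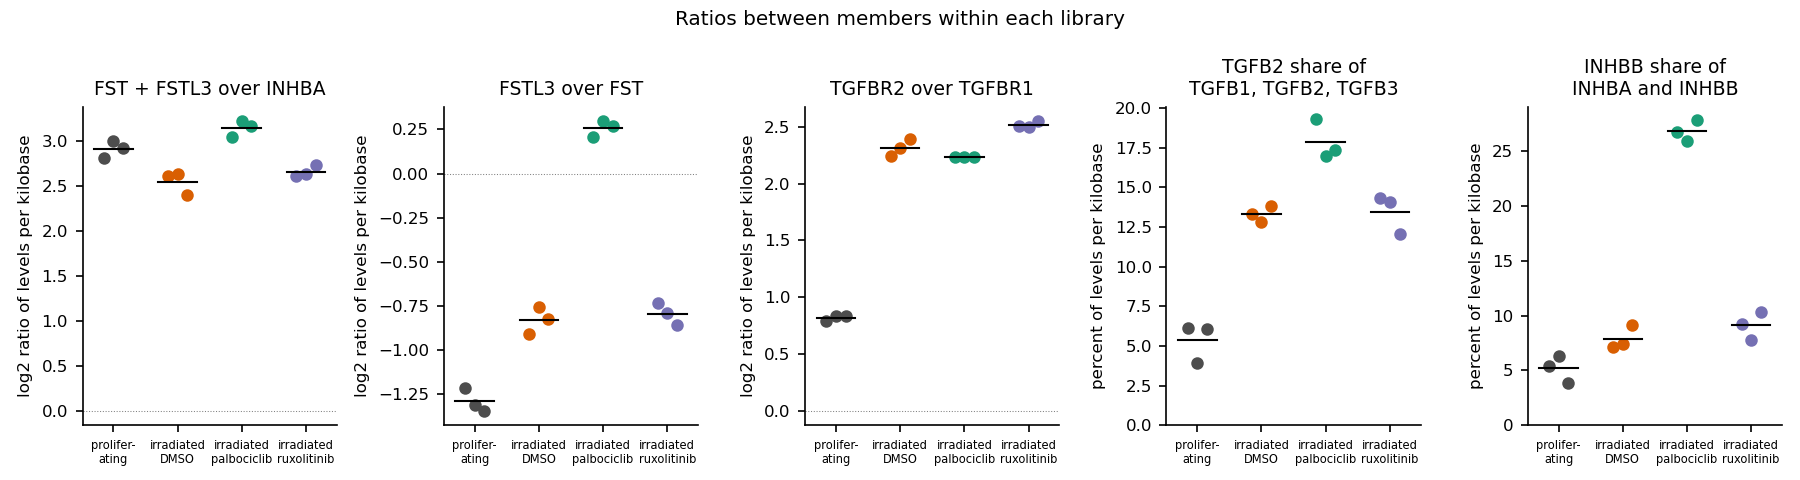
Ratios and shares between members within each library, from normalized counts per kilobase of joined exons, 1 point per library, with a line at the mean of each group; the first 3 panels are log2 ratios and the last 2 percentages. TGFB2 takes its largest share of the ligands (17.9%) in Sen_Palbo, the receptor ratio separates the 3 Prolif libraries from the 9 irradiated ones, and the follistatin to INHBA ratio is highest in Sen_Palbo.

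The plot of ratios and shares sets these quantities beside each other. The rest of the pathway was counted over 4 lists. Of 14 genes of TGF-beta latency and activation, 13 were tested. After irradiation 6 were higher, where 33.0% of all genes were, and 4 lower, where 39.3% were (median log2 fold change 0.12, beside -0.05 over all genes). LTBP3, a latent TGF-beta binding protein, rose from 962.5 ± 120 to 2057 ± 2.07 normalized counts (1.10, adjusted p 4.59e-09). ITGB3, a subunit of an integrin that can bind latent TGF-beta, fell from 2758 ± 375 to 1342 ± 68.9 (-1.03, adjusted p 6.71e-08). With palbociclib 10 were higher and 1 lower than with DMSO (median 0.34, beside 0.02 over all genes, of which 26.0% were higher and 22.3% lower). THBS1, the secreted thrombospondin that can activate latent TGF-beta, rose from 47691 ± 1178 to 80722 ± 8378 (0.75, adjusted p 9.39e-07) and LTBP2, which belongs to the family of latent TGF-beta binding proteins, from 7358 ± 217 to 11126 ± 1528 (0.59, adjusted p 4.07e-05). At the same total per library the count was 2 higher and 2 lower (median 0.12), beside 940 and 5170 of all 11242 genes. That scaling moved the median fold change over all genes by -0.23. Ruxolitinib against DMSO called 1 gene higher, where 1.10% of all genes were, and none lower, where 3.42% were. It was the integrin subunit ITGB8, from 73.9 ± 11.3 to 115.1 ± 13.1 (0.64, adjusted p 0.0494). That call was lost at the same total per library, where 87 of all 11242 genes were called higher and 470 lower. A separate fit of those 2 groups called 5 higher and 1 lower, beside 843 and 998 of all 11242 genes.

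Of 19 other ligands, receptors, co-receptors and extracellular modulators, 15 were tested. After irradiation 9 were higher and 3 lower (median 0.46, beside -0.05 over all genes, of which 33.0% were higher and 39.3% lower). BAMBI, a receptor-like protein without a kinase that dampens signalling, rose from 180.2 ± 21.5 to 543.4 ± 23.4 normalized counts (1.59, adjusted p 1.23e-09), and BGN, the matrix proteoglycan biglycan, fell from 2639 ± 62.5 to 657.2 ± 24.4 (adjusted p 2.81e-13). With palbociclib 4 were higher and 4 lower than with DMSO (median -0.10, beside 0.02 over all genes, of which 26.0% were higher and 22.3% lower). At the same total 2 were higher and 8 lower, beside 940 and 5170 of all 11242 genes. DCN, the TGF-beta-binding proteoglycan decorin, rose from 13247 ± 522 to 26839 ± 1036 (1.02, adjusted p 2.13e-10), BGN rose to 1265 ± 30.6 (0.94, adjusted p 1.23e-08) and BAMBI fell to 358.8 ± 47.1 (-0.61, adjusted p 0.000187). DCN is also 1 of the 8 fibroblast markers, whose summed level was higher in all 3 palbociclib libraries than in any DMSO library. Its part in these counts was not tested. Ruxolitinib against DMSO called none of the 15, where 1.10% of all genes were higher and 3.42% lower. The fit of those 2 groups alone called 2 higher and 3 lower, beside 843 and 998 of all 11242 genes.

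Of 19 SMAD transducers, partners and brakes, 18 were tested, and they were called in both directions. After irradiation 6 were higher and 7 lower (median -0.04, beside -0.05 over all genes, of which 33.0% were higher and 39.3% lower). At the same total 10 were higher and 4 lower, beside 5273 and 2970 of all 11242 genes. SMAD7, the inhibitory SMAD that the pathway itself induces, rose from 359.6 ± 12.8 to 680.6 ± 35.8 normalized counts (0.92, adjusted p 3.17e-09), and SMAD4, the shared partner of the signalling SMADs, fell from 1494 ± 124 to 1033 ± 36.1 (-0.53, adjusted p 2.29e-06). With palbociclib 7 were higher and 5 lower than with DMSO (median -0.07, beside 0.02 over all genes, of which 26.0% were higher and 22.3% lower). At the same total 2 were higher and 11 lower, beside 940 and 5170 of all 11242 genes. SMURF2, a ubiquitin ligase that targets SMADs and receptors, rose from 11878 ± 164 to 16892 ± 1169 (0.51, adjusted p 1.44e-06), PMEPA1, a membrane protein that sequesters SMADs, from 468.8 ± 38.0 to 632.8 ± 22.2 (0.44, adjusted p 0.000122), while NEDD4L, another ubiquitin ligase, fell from 671.8 ± 26.3 to 437.5 ± 49.3 (-0.62, adjusted p 2.07e-05) and the co-repressor TGIF1 from 868.8 ± 22.2 to 575.4 ± 25.2 (-0.59, adjusted p 9.07e-06). With ruxolitinib SKIL, a co-repressor of SMADs, was the 1 call, from 1267 ± 57.8 to 1060 ± 36.8 (-0.26, adjusted p 0.0329). Of all genes 1.10% were higher there and 3.42% lower. A fit of those 2 groups alone called 1 higher and 4 lower, beside 843 and 998 of all 11242 genes.

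All 28 genes of a list of known TGF-beta responses of fibroblasts were tested. After irradiation 18 were lower, where 39.3% of all genes were, and 6 higher, where 33.0% were (median -0.48, beside -0.05 over all genes). ELN, which encodes elastin, fell from 1267 ± 46.3 to 110.7 ± 7.02 normalized counts (-3.51, adjusted p 3.72e-14) and SPHK1, a sphingosine kinase, from 1375 ± 138 to 283.3 ± 19.3 (-2.27, adjusted p 7.79e-11), while SMAD7 and the cell cycle inhibitor CDKN2B rose, the latter from 178.9 ± 25.5 to 349.4 ± 14.4 (0.97, adjusted p 2.58e-07). With palbociclib 18 were higher and 5 lower than with DMSO (median 0.65, beside 0.02 over all genes). Of all genes 26.0% were higher there and 22.3% lower. At the same total 17 were higher and 7 lower, beside 940 and 5170 of all 11242 genes. ACTA2, smooth-muscle actin, rose from 5076 ± 263 to 12569 ± 1074 (1.31, adjusted p 1.72e-10) and ELN to 243.5 ± 6.39 (1.13, adjusted p 7.83e-08). The 5 lower genes were the matricellular gene POSTN, from 721.4 ± 6.69 to 135.0 ± 24.4 (-2.42, adjusted p 1.47e-10), SMAD7, to 471.2 ± 7.93 (-0.53, adjusted p 7.98e-06), and IL11, JUNB and KLF10 (-0.51, -0.50 and -0.41). IL11, JUNB and KLF10 fall outside the naming rule and are named only to complete the 5, with their values already seen. The list therefore held collagen and contractile genes among the higher ones and SMAD7, JUNB and KLF10, which are known as immediate targets, among the lower ones. That matrix and contractile genes rose with palbociclib was known from earlier results on these libraries, so the list is not independent evidence of its direction. Summed fibroblast markers moved with it, as given above, and 2 of those markers, COL1A1 and COL1A2, are in the list. These 2, at 268524 and 233658 normalized counts on average with palbociclib, make up most of the sum, so it largely restates genes of the list. PDGFRA alone of the 8 markers was lower with palbociclib, at 3681, 2937 and 3486, against 4056, 4142 and 4170 with DMSO. The smooth muscle markers MYH11 and DES summed to 83.8 to 106.9 normalized counts in Prolif, 66.3 to 94.0 in Sen_DMSO, 26.6 to 44.9 in Sen_Palbo and 27.0 to 40.6 in Sen_Ruxo, with MYH11 at 0 in all Prolif and Sen_Ruxo libraries. Their part in the result was not tested.

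**Figure D4:**
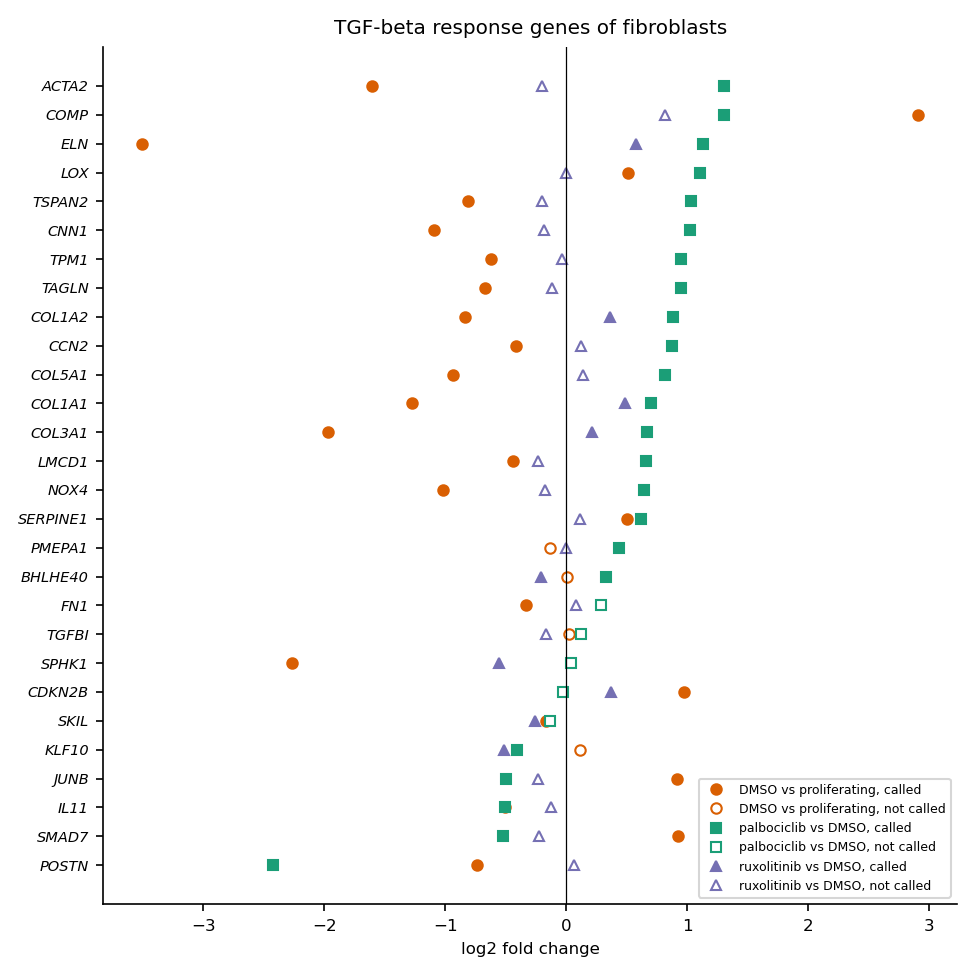
Log2 fold changes of the 28 fibroblast response genes of TGF-beta for Sen_DMSO against Prolif, Sen_Palbo against Sen_DMSO and Sen_Ruxo against Sen_DMSO, as circles, squares and triangles, filled where called. With palbociclib 18 genes are called higher and 5 lower, with POSTN (-2.42) the lowest; with ruxolitinib 9 are called.

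The plot of response genes shows each of the 28 in turn. With ruxolitinib 5 were higher and 4 lower than with DMSO (median -0.08, beside -0.00 over all genes, of which 1.10% were higher and 3.42% lower). The collagen gene COL1A1 rose from 165728 ± 2083 to 231249 ± 1946 normalized counts (0.48, adjusted p 6.33e-05) and ELN to 165.7 ± 17.4 (0.57, adjusted p 0.000930), while KLF10, an early TGF-beta target, fell from 1568 ± 65.7 to 1098 ± 21.1 (-0.51, adjusted p 1.41e-05) and SPHK1 to 193.5 ± 28.2 (-0.56, adjusted p 0.0103). A fit of those 2 groups alone called 9 higher and 11 lower, beside 843 and 998 of all 11242 genes. In the direct comparison, palbociclib had 19 of the 28 higher than ruxolitinib and 4 lower (median 0.51, beside 0.02 over all genes, of which 22.8% were higher and 17.6% lower). The largest differences were in ACTA2 (12569 ± 1074 against 4419 ± 59.9, adjusted p 5.36e-11) and TSPAN2, a tetraspanin (193.7 ± 9.47 against 82.3 ± 10.5, 1.23, adjusted p 9.46e-07), and on the lower side in POSTN (-2.48, adjusted p 1.64e-10) and CDKN2B (-0.40, adjusted p 0.00469). Against Prolif, Sen_Palbo had 12 of the 28 higher and 10 lower (median 0.10, beside -0.03 over all genes, of which 35.2% were higher and 38.6% lower). LOX, a collagen cross-linking enzyme, was higher there by 1.61 (adjusted p 2.72e-12). POSTN and ELN were lower there (-3.17, limma adjusted p 4.61e-13, and -2.37, limma adjusted p 1.41e-12). Sen_Ruxo had 6 higher than Prolif and 20 lower (median -0.55, beside -0.06 over all genes, of which 32.6% were higher and 39.5% lower). The comparisons that share the DMSO or the Prolif libraries are not independent of each other.

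For each member the genes most like it in pattern were taken as the 3 with the highest Pearson correlation of log2 levels over the 12 libraries. These values mostly reflect the 4 group means, share the libraries' depth and scaling and are a description. TGFBR2 was closest to CLIP3, ABLIM3 and MINK1 (r = 0.996 each), FST to KIFC3 (0.998), GGH (0.995) and NOP58 (0.994), and INHBA to AEBP1 (0.992), ZNF410 (0.985) and PAQR4 (0.984). FSTL3 was closest to the contractile genes TAGLN (0.992) and TPM1, both in the response list above, and to GARS1 (0.984), a transfer RNA synthetase gene. TGFB2 was closest to SGCB, SLC31A1 and TEX2 (0.987 each), INHBB to INF2 (0.970), HPS1 (0.969) and DELE1 (0.968), TGFB1 to PCBP1 (0.984), KCNG1 (0.984) and CTBP1 (0.981), and TGFBR1 to WWC2 (0.985), ROCK1 and UBASH3B (0.971). TGFB3, with few reads, had the lowest best match, PHEX (0.912). Among the members themselves, TGFBR2 and FST were the most opposite pair (r = -0.994), and INHBA and FST the most alike (0.963).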

How the data were processed

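RNA was captured by its poly(A) tail and sequenced, per the labels' protocols. The submitters' processing notes name Trimmomatic 0.38.1, HISAT2 2.2.1, featureCounts 2.0.3 and DESeq2 2.11.40.8 and the build GRCh38; the annotation and strand setting are not given in the sources used here. The authors deposited 1 table of normalized counts, a signal that is never negative, for 16383 genes up to Entrez number 140467; genes with higher numbers were not analysed here. Every value above 0 (160380 of 160380, 100%, tolerance 0.01) was a whole multiple of 1 read's worth, so whole reads were recovered from the deposited values. Columns were assigned to groups by name. Tests used limma 3.58.1 (R 4.3.3) with log2(normalized count + 1) as the response, 4 group means over 12 libraries and variances that follow the mean level, for 11242 genes with a mean of at least 10, with Benjamini-Hochberg adjustment over all tested genes; calls are adjusted p-values under 0.05. Fold changes are on that scale, which understates low genes. Ratios used GENCODE exon lengths and exact two-sided permutation tests in scipy 1.17.1. Alternatives were pseudocounts of 0.1 and 5, no filter or a mean of at least 50, the same total or upper quartile per library, a fit of 2 groups, edgeR 4.0.16 and DESeq2 1.42.0 on recovered reads, and leaving out each library. Scripts were tested on simulated data. Named list genes are up to 2 called increases and 2 called decreases of largest fold change whose higher group averages at least 100, given in part. The members, lists and rules were chosen with earlier results of these data known. Promoter sequences and gene positions are RefSeq's on GRCh38.p14.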

Additional observations from a re-analysis of the deposited data

How the results depend on the processing

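Of 416 alternative values of member counts and ratios, 394 kept their direction or stayed within 1.5 times the count, and of 1023 tested single-gene values 960 kept direction and call. TGFB1, TGFB2, INHBA, TGFBR2, FST and FSTL3 kept both in Sen_DMSO against Prolif, and TGFB2 and FSTL3 in both palbociclib comparisons, under every alternative run. The number of members called lower moved for palbociclib against DMSO to 3 at the same total and 0 to 2 with 1 library left out, for palbociclib against ruxolitinib to 2 at the same total, and for ruxolitinib against DMSO to 0 without a filter, 0 at the same upper quartile, 2 in the fit of 2 groups and 0 to 1 with 1 library left out. In that fit ruxolitinib had 1 member higher.

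At the same total per library the direction reversed for TGFBR1 in Sen_DMSO against Prolif (0.043), for TGFB1 (-0.19), TGFBR1 (-0.03) and TGFBR2 (-0.11) with palbociclib against DMSO, and for TGFB1 (-0.10), INHBA (-0.17, adjusted p 0.0333 by limma), TGFBR2 (-0.20, adjusted p 0.0199) and FST (-0.16) in palbociclib against ruxolitinib. In that comparison it also reversed at the same upper quartile for INHBA (-0.012), TGFBR2 (-0.047) and FST (-0.003), and for TGFBR2 under edgeR (-0.025) and DESeq2 (-0.021). The cause of each was not tested.

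Leaving out 1 library gave ranges across 0 for palbociclib against DMSO in TGFB1 (-0.01 to 0.077) and TGFB3 (-0.25 to 0.13), for ruxolitinib against DMSO in TGFB2 (-0.11 to 0.008), for palbociclib against ruxolitinib in TGFBR2 (-0.067 to 0.051), INHBA (-0.021 to 0.086) and FST (-0.038 to 0.085), for palbociclib against Prolif in TGFBR1 (-0.077 to 0.062) and for ruxolitinib against Prolif in INHBB (-0.12 to 0.28). For shares, the difference ranged from -1.03 to 0.180 percentage points for TGFB1 and from -0.290 to 0.851 for TGFB2 with ruxolitinib against DMSO, and from -0.0902 to 0.0108 for TGFB3 with palbociclib against DMSO. TGFB3 has no value at a mean of at least 50, and its 10 to 32 reads per library limit what can be detected.

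Over all genes, palbociclib against DMSO called 2927 higher and 2505 lower, and 940 and 5170 at the same total. Against ruxolitinib these were 2561 and 1983, and 847 and 4531. Ruxolitinib against DMSO called 124 and 384, 843 and 998 in the fit of 2 groups, and 199 higher under DESeq2. With 1 library left out it called 38 to 238 higher, and 220 lower at the fewest. No paired analysis was possible because the columns carry library numbers and no replicate numbers.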
